A study of Rattus norvegicus with 9 samples.

Results

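The genes described here are 8 genes of Schwann cells and of the myelin these cells make: Pmp22, Mbp, Prx, Sox10, Mag, Egr2, S100b and Cnp. They were taken by symbol from the 32883 genes of the deposited count table. No threshold on a measured value selected them, but they were picked with earlier results of these data known. All 8 symbols matched 1 entry each, and all 8 passed the filter on low counts that left 15517 genes for testing. RNA was sequenced from the vestibular epithelium of male Long-Evans rats, with the utricles and cristae of each animal pooled in 1 library. Rats of the IDPN-3wk and IDPN-7wk groups drank water with 20 mM 3,3'-iminodipropionitrile (IDPN), a nitrile that is toxic to vestibular hair cells (HCs), for 3 or 7 weeks. Control rats drank plain water. Each group had 3 libraries, and the single control group, which held animals taken at both exposure times, served both comparisons with control. The ages of these rats were not given in the sources used here.

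Schwann cells are the glia of peripheral nerves. A myelinating Schwann cell wraps a stretch of an axon in many layers of membrane, and these layers are pressed together into compact myelin by a small set of very abundant proteins. The vestibular afferent axons lose their myelin as they enter the sensory epithelium, so a dissected utricle or crista holds the myelinated nerve fibres of the underlying stroma together with HCs, supporting cells, vessels and connective tissue. The transcription factors SOX10 and EGR2 switch on the myelin genes during development and keep them on in the adult. After injury, Schwann cells can lower their myelin genes and take up a repair state that depends on JUN. In RNA from whole tissue, fewer Schwann cells and less RNA per Schwann cell cannot be told apart.

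Promoter sequences are shown for Pmp22, Prx and Mag, as examples of windows with 1 match each among genes that lay below all controls after 7 weeks of IDPN. The windows are the 250 bases before each gene's start in RefSeq (build GRCr8), which had entries for 7 of the 8 genes and none for Sox10. Motifs of factors that act on myelin genes were searched on both strands. They were ACAAAG and ACAATG for SOX factors, GCGGGGGCG, GCGTGGGCG and GAGGGGGCG for EGR factors, and GGAATG for TEAD factors. The EGR motifs GCGGGGGCG and GAGGGGGCG share their last letters, GGGGGCG. Capitals mark a match, which in these 3 windows always lay on the minus strand relative to the gene, so the printed strand reads CATTCC for the TEAD motif and CTTTGT for the SOX motif.
Pmp22, chr10:48294682-48294931, plus strand: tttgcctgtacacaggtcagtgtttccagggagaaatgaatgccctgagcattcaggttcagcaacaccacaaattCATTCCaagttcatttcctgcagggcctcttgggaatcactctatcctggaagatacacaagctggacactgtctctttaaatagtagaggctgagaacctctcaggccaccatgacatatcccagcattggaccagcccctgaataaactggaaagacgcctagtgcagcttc
Prx, chr1:91914171-91914420, plus strand: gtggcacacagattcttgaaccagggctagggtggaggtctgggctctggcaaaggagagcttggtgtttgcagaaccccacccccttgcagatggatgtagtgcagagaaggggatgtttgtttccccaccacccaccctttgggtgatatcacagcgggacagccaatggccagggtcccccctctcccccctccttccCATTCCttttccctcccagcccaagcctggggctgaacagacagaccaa
Mag, chr1:95291045-95291294, minus strand: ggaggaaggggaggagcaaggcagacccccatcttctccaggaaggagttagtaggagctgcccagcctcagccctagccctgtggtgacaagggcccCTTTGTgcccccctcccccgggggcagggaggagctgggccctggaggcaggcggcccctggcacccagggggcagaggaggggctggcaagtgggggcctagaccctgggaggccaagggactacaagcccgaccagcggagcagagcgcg
The TEAD motif began 174 bases before the start of Pmp22 and 49 bases before that of Prx, and 12.1% of all 33469 windows of this length held it. The SOX motif ACAAAG began 152 bases before the start of Mag, and 16.3% of all windows held it on either strand. Cnp held 1 match to ACAAAG, and of the 2 entries for Mbp 1 held 3 SOX matches and the other none. Either of the SOX motifs was found in 25.3% of all windows. No EGR motif was found in the windows of the 7 genes, against 4.89% of all windows, and Egr2 and S100b held none of the 6 motifs. Such matches are frequent and say nothing about binding in this tissue.

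Library totals ran from 31100118 to 46018385 counts, so that a level of 3 counts corresponded to 0.0611 to 0.101 CPM. CPM divide each count by the size of its library, here after TMM normalization, which corrects for differences in library composition. CPM are not divided by transcript length, so levels were compared between groups and not between genes. The libraries of Control 3, IDPN-3wk 1 and IDPN-3wk 2 stood apart from the other 6, with 15387 to 15498 genes detected at equal depth against 16834 to 17312. Replicate numbers were given in order of accession and pair no animals. Each library was made from a separate rat, and the labels name a single batch for all 9. Library titles start with 1 of 4 codes, whose meaning is not given in the sources used here. The first code is common to the 3 controls, another to IDPN-3wk 2 and 3 and another to IDPN-7wk 2 and 3, while IDPN-3wk 1 and IDPN-7wk 1 share the remaining one. What the codes mark and the comparison with control therefore cannot be told apart.

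The 8 genes together were at 4025 to 9150 CPM over the 9 libraries. The defining markers of oligodendrocytes, the myelinating cells of the central nervous system, were at or near 0. Opalin and Klk6 were at 0 in all 9 libraries, which allows up to 0.0611 to 0.101 CPM per library, and Mog did not exceed 0.699 CPM. The 10 oligodendrocyte markers summed to 87.5 to 204 CPM per library, mainly from Cldn11, Aspa and Mag, which are not particular to these cells. Of the 6 tested, edgeR called none at any time. Against control, DESeq2 called 1 higher at 3 weeks, and 1 higher and 2 lower at 7 weeks. Some of the 8 genes are not particular to Schwann cells. S100b is also expressed by supporting cells of the inner ear, and Sox10 by melanocytes and inner ear epithelium.

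Pmp22 and Mbp encode structural proteins of compact myelin. PMP22 is a membrane protein whose gene is duplicated in the most common hereditary demyelinating neuropathy, and MBP binds the inner faces of the membrane together. Pmp22 was at 1884, 2325 and 1724 CPM in control replicates 1 to 3, at 1224, 1698 and 1793 CPM in the IDPN-3wk replicates and at 535, 1108 and 1156 CPM in the IDPN-7wk replicates. Mbp was at 1766, 2340 and 1856 CPM in the controls, at 1390, 1813 and 1822 CPM after 3 weeks and at 485, 1141 and 1063 CPM after 7 weeks. For both genes, every IDPN-7wk library lay below every control and every IDPN-3wk library, and the IDPN-3wk range reached into the control range. A gene was called when its p, adjusted over all genes tested, was under 0.05 in edgeR's quasi-likelihood test and its fold change exceeded 1.5. At 7 weeks Pmp22 was 2.12-fold lower than in control (log2 fold change -1.08, SE 0.265, adjusted p = 0.0397 by edgeR). Mbp was 2.22-fold lower (log2 fold change -1.15, SE 0.272, adjusted p = 0.0350 by edgeR).

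Both calls lay near the threshold. In edgeR fits that left out 1 library each, the adjusted p ranged from 0.0329 to 0.135 for Pmp22 and was under 0.05 in 2 of 9 fits. It passed 0.05 without Control 1, 2 or 3, IDPN-3wk 2 or 3, or IDPN-7wk 2 or 3, while the log2 fold change stayed between -1.27 and -0.80. For Mbp the adjusted p of edgeR ranged from 0.0212 to 0.121 and was under 0.05 in 4 of 9 fits. It passed 0.05 without Control 1, 2 or 3, IDPN-3wk 3 or IDPN-7wk 3, with log2 fold changes from -1.36 to -0.85. Scaling by library totals alone, without TMM, gave adjusted p = 0.0612 for Pmp22 and 0.0520 for Mbp in edgeR.

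**Figure D1:**
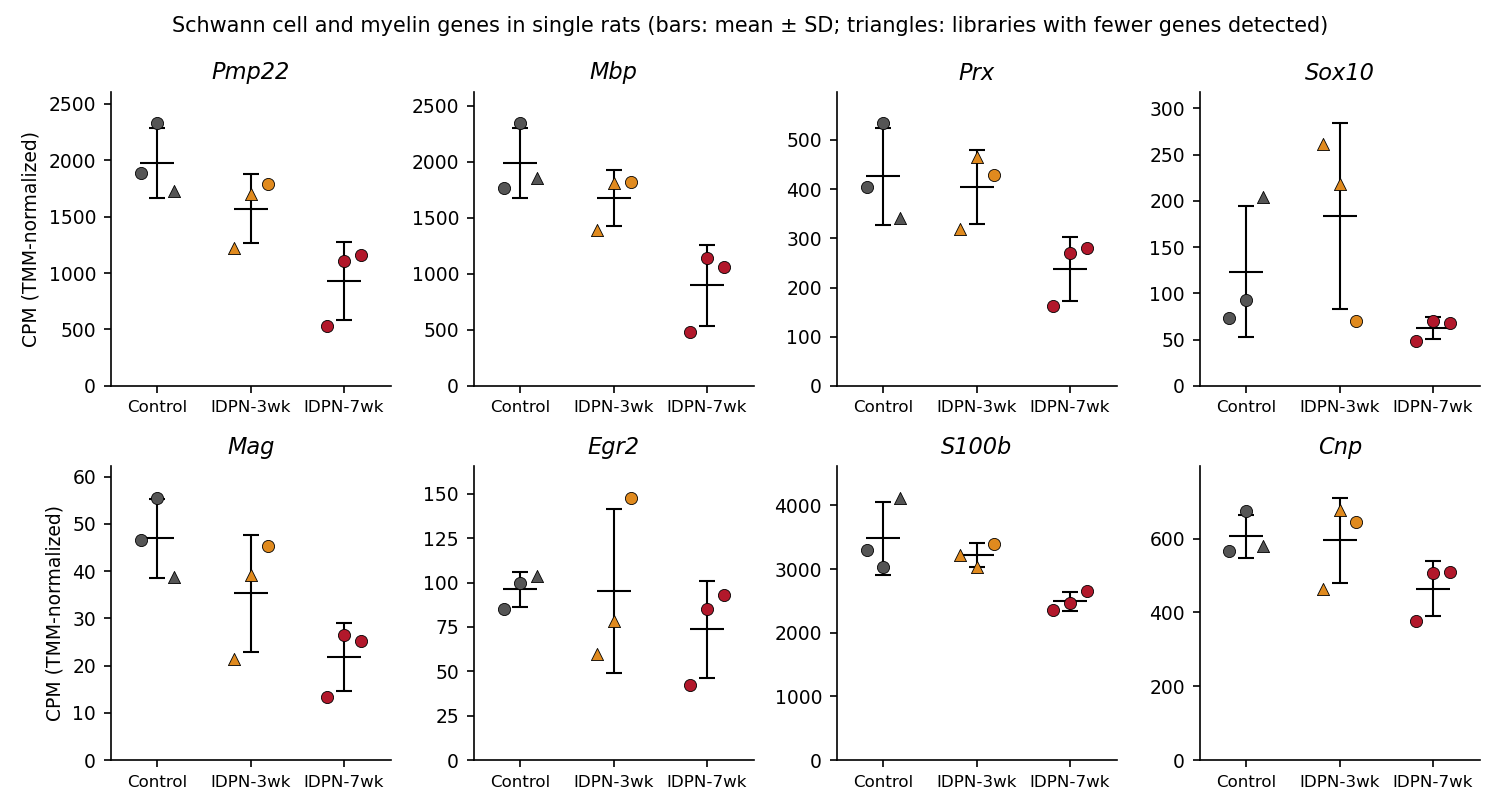
Levels of the 8 genes in single rats, in CPM (TMM-normalized, each vertical axis starting at 0) by group, with a point per library and bars for the mean and SD of 3 libraries. Triangles mark the 3 libraries with fewer genes detected. The lowest point of every panel is IDPN-7wk replicate 1, at 535 CPM for Pmp22, and the 3 triangles in the Sox10 panel are its 3 highest points.

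Mag, Cnp and Prx encode proteins outside compact myelin. MAG sits in the membrane that faces the axon, CNP keeps channels of cytoplasm open in the sheath, and periaxin links the outer Schwann cell membrane to the basal lamina. Prx was at 404, 533 and 341 CPM in the controls, 319, 465 and 429 CPM after 3 weeks and 162, 270 and 280 CPM after 7 weeks. Mag was at 46.7, 55.6 and 38.8 CPM in the controls, 21.5, 39.2 and 45.3 CPM after 3 weeks and 13.5, 26.5 and 25.3 CPM after 7 weeks. All 3 IDPN-7wk libraries lay below all controls for both genes, and for Prx also below all IDPN-3wk libraries. Neither gene was called by edgeR at 7 weeks against control, with Prx at a log2 fold change of -0.85 (SE 0.232, adjusted p = 0.0634) and Mag at -1.11 (SE 0.316, adjusted p = 0.0723). Without IDPN-3wk replicate 1 both passed, with adjusted p = 0.0475 for Prx and 0.0296 for Mag in edgeR, and DESeq2 called both on all 9 libraries with adjusted p = 0.00299 and 0.00740. Cnp was at 566, 674 and 580 CPM in the controls, 464, 678 and 644 CPM after 3 weeks and 377, 506 and 509 CPM after 7 weeks. Its IDPN-7wk libraries also lay below all controls, at a log2 fold change of -0.39 (SE 0.160, adjusted p = 0.218 by edgeR) that was not called.

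Sox10 and Egr2 encode the transcription factors of the myelin genes. Sox10 was at 73.9, 92.5 and 204 CPM in the controls, 261, 219 and 70.4 CPM after 3 weeks and 48.6, 70.4 and 67.6 CPM after 7 weeks. The levels of Control 3, IDPN-3wk 1 and IDPN-3wk 2, the 3 libraries with fewer genes detected, were 204 to 261 CPM, and the other 6 libraries lay between 48.6 and 92.5 CPM. Of the 15517 genes tested, 4.97% had these 3 libraries above the other 6. Among libraries with more genes detected, Sox10 in the 3 IDPN-7wk libraries differed from the mean of the 2 controls by -0.42 on the log2 scale, against -0.99 (SE 0.472, adjusted p = 0.290 by edgeR) over all controls. The IDPN-3wk difference from control was 0.57 (SE 0.468) over all libraries, 0.22 within the libraries with fewer genes and -0.23 within those with more. The part of the library set in the Sox10 levels was not tested, and none of the 3 comparisons called Sox10. Egr2 was at 85.0, 100.0 and 103 CPM in the controls, 60.0, 78.6 and 148 CPM after 3 weeks and 42.2, 85.3 and 93.2 CPM after 7 weeks. The Egr2 groups overlapped in all comparisons, and the IDPN-7wk difference from control was -0.39 on the log2 scale (95% interval -1.15 to 0.38).

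**Figure D2:**
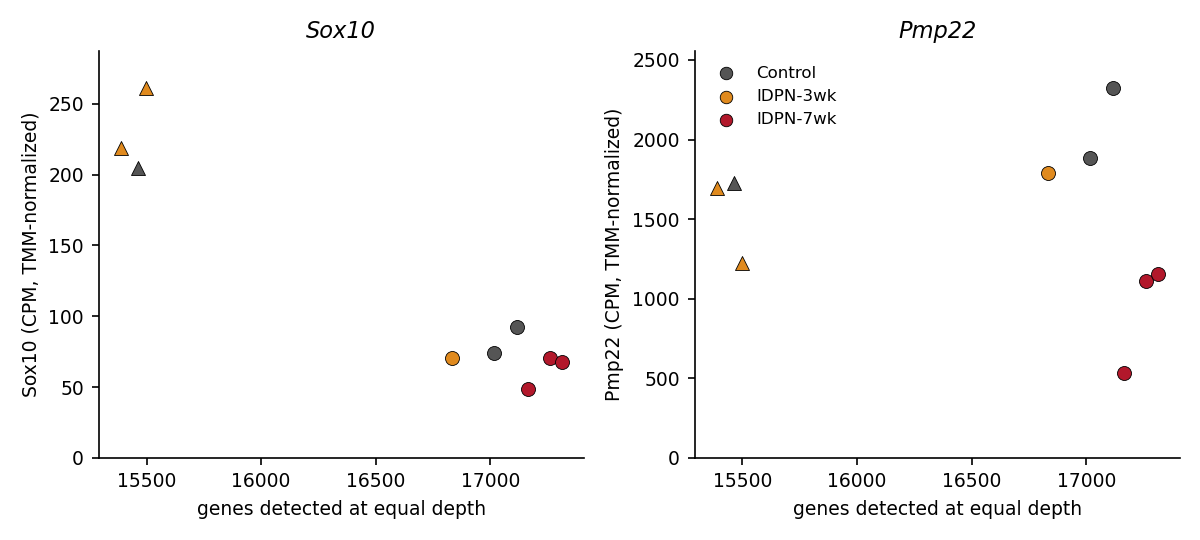
Levels of Sox10 and Pmp22 in CPM (TMM-normalized, axes starting at 0) against the number of genes detected at equal depth, with a point per library coloured by group and triangles for the 3 libraries with fewer genes detected. For Sox10 the triangles (204 to 261 CPM) lie above all circles (48.6 to 92.5 CPM), and for Pmp22 they do not.

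S100b encodes a calcium-binding protein that serves as a marker of Schwann cells. It was at 3298, 3030 and 4120 CPM in the controls, 3228, 3035 and 3400 CPM after 3 weeks and 2361, 2463 and 2652 CPM after 7 weeks. The IDPN-7wk libraries lay below the other 6 and close together, with a coefficient of variation of 5.92%. The IDPN-7wk level was 1.40-fold lower than in control (log2 fold change -0.48, SE 0.113, adjusted p = 0.0333 by edgeR), which passed the threshold on p and not that on fold. Without IDPN-7wk replicate 1 the adjusted p was 0.118, without replicate 2 it was 0.108 and without replicate 3 it was 0.0748, and it also passed 0.05 without Control 1 (0.0714) or Control 3 (0.0785), at log2 fold changes of -0.57 to -0.34 (edgeR).

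After 3 weeks, edgeR called none of the 8 genes, against 1.21% of all genes tested called lower and 0.438% called higher. DESeq2 called none either, against 3.32% of all genes called lower, and none had an unadjusted p under 0.05, against 15.8% of all genes. The estimates ran from -0.41 for Mag to 0.57 for Sox10 on the log2 scale, with a median of -0.09 beside -0.0005 over all genes. The 95% interval of the difference was -0.92 to 0.25 for Pmp22, -0.85 to 0.35 for Mbp and -0.36 to 0.14 for S100b. These intervals held 0, and any difference inside them remained compatible with the data of 3 libraries per group.

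After 7 weeks, edgeR called 2 of the 8 genes lower (Pmp22 and Mbp) and none higher, against 3.13% and 2% of all genes tested. DESeq2 called 4 lower (Pmp22, Mbp, Prx and Mag), against 5.17% of all genes. An unadjusted p under 0.05 was found for 6 of the 8 genes, against 19.3% of all genes, and for 7 of the 8 all IDPN-7wk libraries lay below all controls, against 17.1% of all genes. The exception was Egr2. The median log2 fold change of the 8 genes was -0.92, beside 0.01 over all genes, and the estimate of each gene was below 0 in all 17 refits with another test, scaling, filter, covariate or set of libraries.

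Between 7 and 3 weeks, edgeR called none of the 8 genes, against 0.135% of all genes called lower. DESeq2 called 3 lower (Pmp22, Mbp and Prx), against 1.8% of all genes. There were 6 genes with an unadjusted p under 0.05, against 13.8% of all genes, and 4 genes whose IDPN-7wk libraries all lay below the IDPN-3wk libraries (Pmp22, Mbp, Prx and S100b), against 8.93% of all genes. Mbp was 1.87-fold lower (log2 fold change -0.90, SE 0.271, adjusted p = 0.198 by edgeR) and Pmp22 was 1.68-fold lower (log2 fold change -0.75, SE 0.263, adjusted p = 0.251 by edgeR). In order of mean level, control lay above IDPN-3wk and IDPN-3wk above IDPN-7wk for all genes but Sox10, and no step between neighbours of that order was called by edgeR. Sox10 was 2.95-fold lower at 7 than at 3 weeks (log2 fold change -1.56, SE 0.478, adjusted p = 0.201 by edgeR), and with the library set as a covariate the log2 fold change was -0.34.

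**Figure D3:**
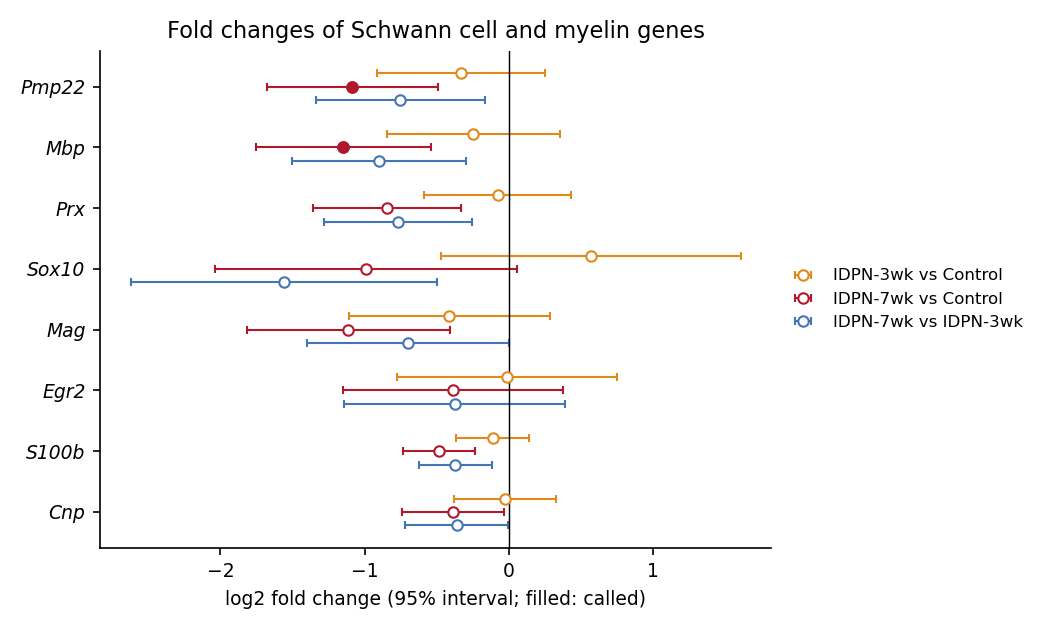
Log2 fold changes of the 8 genes in the 3 comparisons, with bars for 95% intervals from the edgeR fit and filled points for calls. The 2 filled points are Pmp22 (-1.08) and Mbp (-1.15) at 7 weeks against control, and the intervals at 3 weeks against control all cross 0.

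IDPN-7wk replicate 1 had the lowest level of the 9 libraries for each of the 8 genes, while 13.2% of all genes tested were lowest there. IDPN-3wk replicate 1, whose title shares its code, was the lowest of its own group for 6 of them (Pmp22, Mbp, Prx, Mag, Egr2 and Cnp), and 11.9% of all genes tested had both libraries lowest in their groups. Between these 2 libraries, the IDPN-7wk rat differed from the IDPN-3wk rat by -1.20 for Pmp22 and -1.52 for Mbp on the log2 scale of CPM, without replicates. Between the means of the other IDPN rats the differences were -0.62 and -0.72. With both libraries left out, edgeR called Pmp22 (log2 fold change -0.81, adjusted p = 0.0144), Mbp (-0.85, adjusted p = 0.0110) and Mag (-0.86, adjusted p = 0.0463) lower at 7 weeks than in control. The part of what the codes mark was not tested. Its level was 44.0% of the mean of replicates 2 and 3 for Mbp, 47.2% for Pmp22 and for Egr2, 52.0% for Mag and 59.1% for Prx. For Sox10, Cnp and S100b it was 70.4%, 74.4% and 92.3%. The coefficient of variation of Pmp22 was 37.1% over the 3 IDPN-7wk rats and 15.8% over the 3 controls. Without IDPN-7wk replicate 1 alone, Pmp22 and Mbp were still called lower at 7 weeks, with a log2 fold change of -0.80 for Pmp22 (adjusted p = 0.0452 by edgeR) and of -0.85 for Mbp (adjusted p = 0.0212 by edgeR). Prx was then at -0.63 (adjusted p = 0.179) and Mag at -0.86 (adjusted p = 0.226) in edgeR.

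The same library had the highest levels of Jun, Gfap and Ngfr, genes of injured Schwann cells. Of all genes tested, 13.5% were highest there. Jun, Gfap and Ngfr were picked together after their values were seen, and which cells held their RNA was not tested. Jun, a transcription factor of the repair state, was at 57.8, 65.9 and 60.0 CPM in the controls, 48.1, 39.3 and 46.1 CPM after 3 weeks and 158, 66.4 and 108 CPM after 7 weeks. Gfap, from the list of peripheral glia markers, was at 30.8 CPM in IDPN-7wk replicate 1 and at 0 to 11.5 CPM in the other 8 libraries. Ngfr, which encodes the p75 neurotrophin receptor, was at 16.3 CPM there and at 1.35 to 10.5 CPM elsewhere. Artn (9.08 CPM), Cadm1 (33.6 CPM) and Sox2 (5.95 CPM), also of the repair list, went the other way and were at their lowest of the 9 libraries there. Lif, of the same list, was higher there than in the other IDPN-7wk libraries, but not the highest of the 9. Shh and Olig1 were at 0 in all 9 libraries, and Gdnf was at 0 there and in every IDPN-3wk library, so these genes showed no direction. Jun was 1.81-fold higher at 7 weeks than in control without a call by edgeR (log2 fold change 0.86, SE 0.252, adjusted p = 0.0834), and DESeq2 called it (adjusted p = 0.0111).

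**Figure D4:**
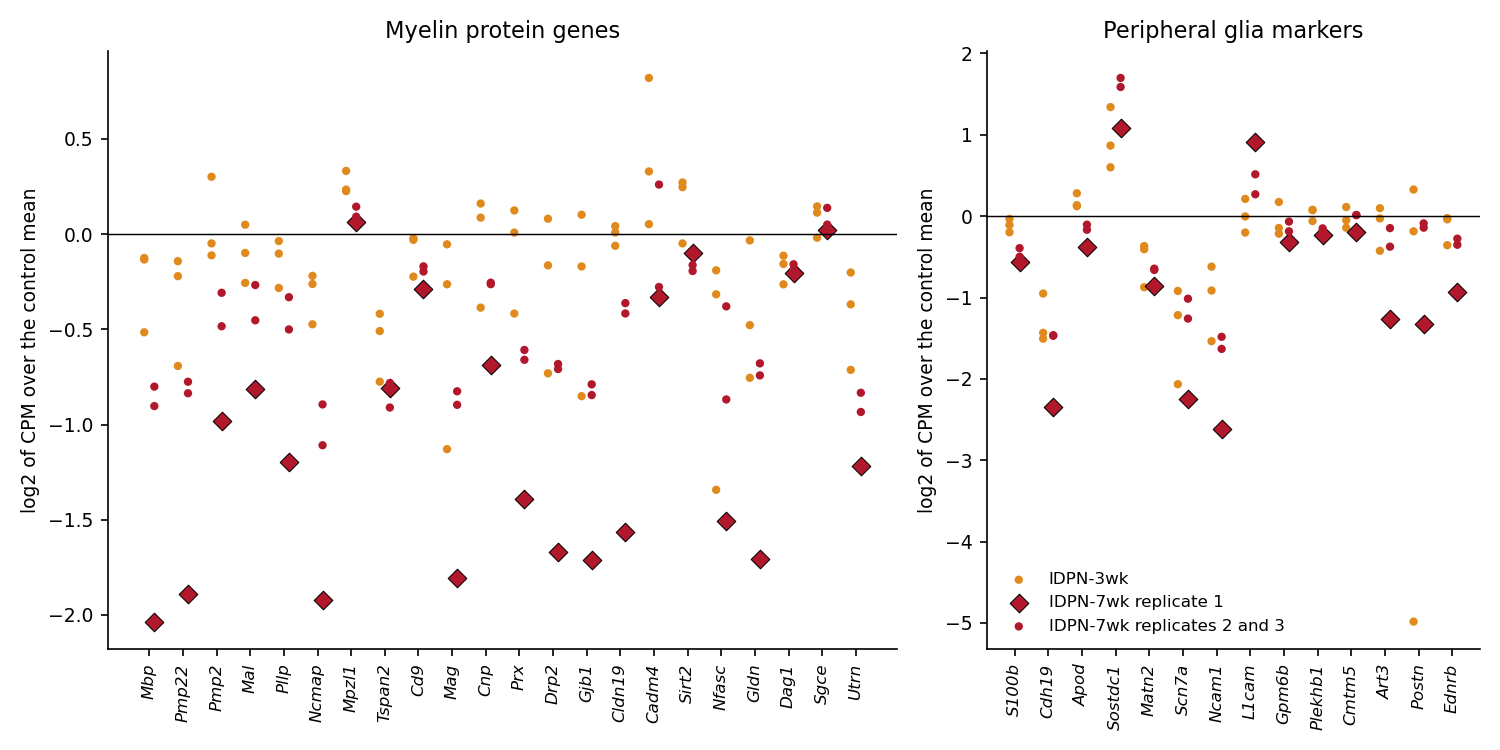
Log2 of the CPM of each IDPN library over the control mean, for the myelin protein genes reported here (left) and peripheral glia markers (right) that had a control mean of 5 CPM or more, with a point per library. Diamonds mark IDPN-7wk replicate 1, which is the lowest point for most myelin genes, among them Mbp and Pmp22.

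Wider lists of myelin and Schwann cell genes place the 8 genes among their neighbours. These lists hold the 8 genes themselves, so their counts and medians are not independent of those of the 8 genes. Of 11 compact myelin genes, edgeR called 4 lower at 7 weeks and none higher (Pmp22, Mbp, Tspan2 and Ncmap), and DESeq2 called 7 lower. The median over the list was a log2 fold change of -0.75, or -0.47 without IDPN-7wk replicate 1. Tspan2, a membrane protein of myelinating glia, was at 81.4 to 97.5 CPM in the controls, 53.0 to 67.9 CPM after 3 weeks and 48.3 to 52.8 CPM after 7 weeks. It was 1.78-fold lower at 7 weeks (log2 fold change -0.83, SE 0.125, adjusted p = 0.00387 by edgeR), and its adjusted p stayed under 0.05 whichever library was left out. Ncmap, listed here although its protein was named for non-compact myelin, was 2.37-fold lower (log2 fold change -1.24, SE 0.262, adjusted p = 0.0205 by edgeR). Without Control 1, Control 2 or IDPN-7wk 3 the adjusted p of Ncmap was 0.0648, 0.0813 and 0.0645. The edgeR count of the compact myelin list fell to 1 without Control 1, Control 2 or IDPN-7wk 3 and to 2 without Control 3 or IDPN-3wk 3, and it was also 2 with library totals without TMM.

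Of 13 genes of non-compact and adaxonal myelin, edgeR called 1 lower at 7 weeks and DESeq2 called 6, with a median log2 fold change of -0.85 (edgeR). The list includes Prx, Mag and Cnp, the DESeq2 calls include Prx and Mag, and the median is the estimate of Prx. The edgeR call was Utrn, the dystrophin relative utrophin of the Schwann cell's outer membrane. Utrn was at 192 to 252 CPM in the controls, 132 to 189 CPM after 3 weeks and 93.4 to 122 CPM after 7 weeks, 1.98-fold lower than in control (log2 fold change -0.99, SE 0.159, adjusted p = 0.00559 by edgeR). In the refit without IDPN-3wk replicate 1, edgeR called 5 genes of this list, among them Prx and Mag. At 3 weeks, neither edgeR nor DESeq2 called a gene of these 2 lists. An unadjusted p under 0.05 in edgeR at 3 weeks was found for 2 of the 11 and 1 of the 13 genes, against 15.8% of all genes.

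The transcription factors tested (12 genes) include Sox10 and Egr2. No gene of these or of the receptors and signals (13 genes) was called by edgeR at any time. At 7 weeks, 2 and 5 of them had an unadjusted p under 0.05 in edgeR, against 19.3% of all genes. DESeq2 then called 1 gene lower in each list (Sox2, which supporting cells also express, and Dhh, the hedgehog ligand of Schwann cells). Erbb3, the neuregulin receptor that Schwann cells depend on, was at 195, 210 and 197 CPM in the controls, 233, 266 and 244 CPM after 3 weeks and 256, 278 and 279 CPM after 7 weeks. Its level was 1.35-fold higher at 7 weeks (log2 fold change 0.44, SE 0.0848, adjusted p = 0.0138 by edgeR), under the fold threshold, with all IDPN libraries above all controls. Itgb4, the laminin receptor subunit of the Schwann cell basal lamina, was at 201, 221 and 235 CPM in the controls and 169, 196 and 199 CPM after 7 weeks (log2 fold change -0.22, SE 0.120, adjusted p = 0.366 by edgeR). Of 6 repair genes tested, edgeR called none at 7 weeks, with 3 at an unadjusted p under 0.05, against 19.3% of all genes. DESeq2 called 1 of the 6 higher (Jun) and 2 lower. Cadm1 was at 43.0 to 46.8 CPM in the controls and 33.6 to 48.4 CPM after 7 weeks.

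Of 18 markers of Schwann cells and peripheral glia, S100b among them, 4 were called lower at 7 weeks and 1 higher, by edgeR and by DESeq2. The median log2 fold change in edgeR was -0.45, or -0.21 without IDPN-7wk replicate 1 and -0.30 without Control 2. The lower calls numbered 2 without Control 1, Control 2, IDPN-7wk 1 or IDPN-7wk 3. Cdh19, a cadherin of Schwann cells and their precursors, was at 49.3, 59.2 and 47.5 CPM in the controls, 18.3, 26.9 and 19.2 CPM after 3 weeks and 10.2, 18.8 and 18.9 CPM after 7 weeks. It was 3.26-fold lower at 7 weeks (log2 fold change -1.71, SE 0.256, adjusted p = 0.00387 by edgeR) and already 2.42-fold lower at 3 weeks (log2 fold change -1.28, SE 0.253, adjusted p = 0.0350 by edgeR, and 0.0695 with the library set as a covariate). The call at 7 weeks held in all 9 fits without 1 library. That at 3 weeks was lost without Control 1, 2 or 3, IDPN-3wk 1 or 3, or IDPN-7wk 2 or 3, with an adjusted p of up to 0.132. It was the only gene of the myelin, Schwann cell and lipid lists called at 3 weeks by edgeR, and DESeq2 called 3 of the 18 markers lower and 2 higher then.

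Ncam1, an adhesion molecule that adult non-myelinating Schwann cells carry, was at 66.4 to 93.8 CPM in the controls, 26.8 to 50.6 CPM after 3 weeks and 12.7 to 27.8 CPM after 7 weeks. It was 3.56-fold lower at 7 weeks (log2 fold change -1.83, SE 0.313, adjusted p = 0.00748 by edgeR). Matn2, a matrix protein of peripheral nerve, was at 266 to 324 CPM in the controls and 167 to 194 CPM after 7 weeks (log2 fold change -0.72, SE 0.142, adjusted p = 0.0152 by edgeR), a call lost without Control 1, Control 2, IDPN-7wk 1 or IDPN-7wk 3 (adjusted p up to 0.0723). The remaining lower gene was Scn7a, which the naming rule does not cover, at a log2 fold change of -1.42 and an adjusted p of 0.0412 by edgeR that rose to as much as 0.128 with 1 library left out. Sostdc1 was at 20.2 to 35.9 CPM in the controls, 40.3 to 67.3 CPM after 3 weeks and 56.5 to 86.2 CPM after 7 weeks. It was 2.79-fold higher at 7 weeks (log2 fold change 1.48, SE 0.264, adjusted p = 0.00926 by edgeR) and encodes a secreted inhibitor of BMP and Wnt signals.

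**Figure D5:**
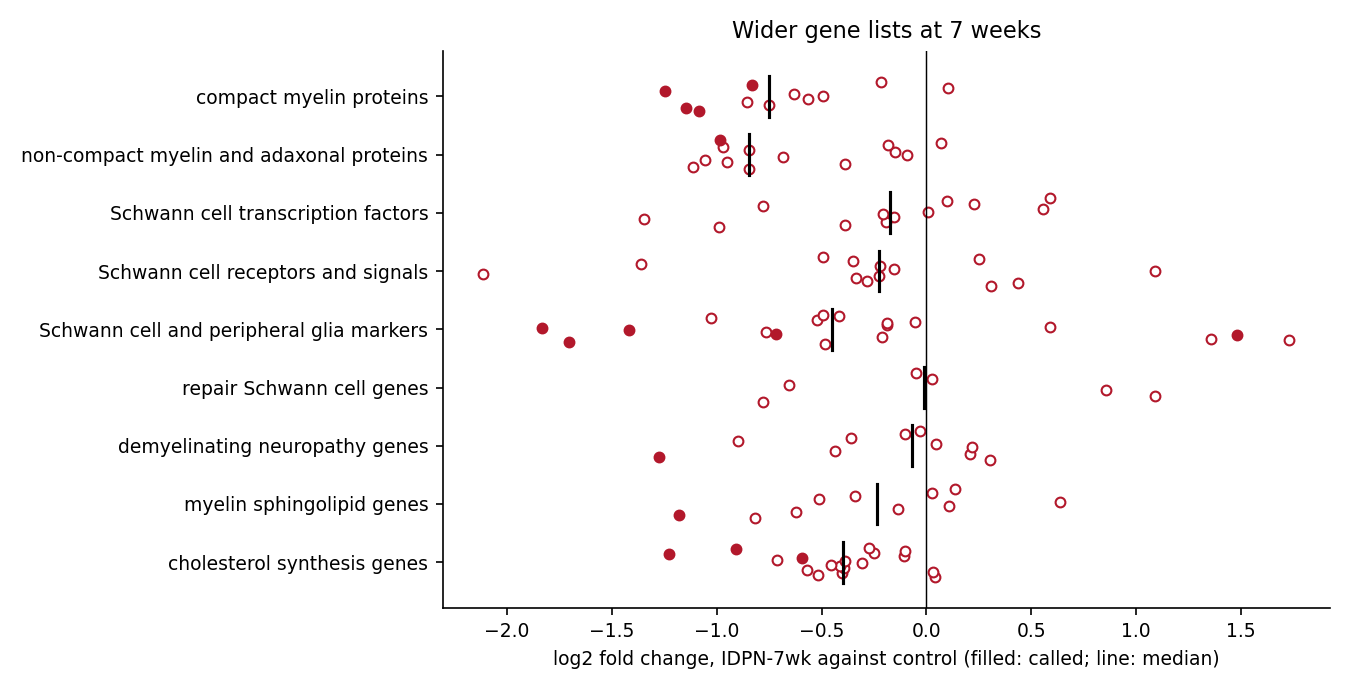
Log2 fold changes at 7 weeks against control for the genes of each list, with a point per gene, filled where edgeR called it, and a line at the list's median. The medians of the compact (-0.75) and non-compact (-0.85) myelin lists are the lowest of the 9 Schwann cell, myelin, neuropathy and lipid lists plotted, which leave out the markers of other cell types, and the list of peripheral glia markers spreads from -1.83 to 1.73.

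Genes mutated in demyelinating neuropathies other than the structural myelin genes mostly stayed uncalled, with 1 of 10 lower by edgeR at 7 weeks and 2 by DESeq2. Ndrg1, needed by Schwann cells to keep their myelin, was at 859, 926 and 829 CPM in the controls, 610, 737 and 704 CPM after 3 weeks and 270, 427 and 381 CPM after 7 weeks. The 3 groups did not overlap. Ndrg1 was 2.42-fold lower at 7 weeks than in control (log2 fold change -1.28, SE 0.153, adjusted p = 0.00113 by edgeR), which held in all 9 fits without 1 library.

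Myelin is rich in lipids, and galactosylceramide and cholesterol are among its main ones. Of 10 sphingolipid genes edgeR called 1 lower at 7 weeks, and DESeq2 called 1 lower and 1 higher. The lower gene was Ugt8, which encodes the enzyme that makes galactosylceramide. Ugt8 was at 153, 151 and 133 CPM in the controls, 58.1, 93.9 and 120 CPM after 3 weeks and 58.3, 70.0 and 65.0 CPM after 7 weeks. It was 2.27-fold lower at 7 weeks (log2 fold change -1.18, SE 0.216, adjusted p = 0.0104 by edgeR), with an adjusted p of 0.0563 without IDPN-7wk 1. Of 18 cholesterol synthesis genes, edgeR called 3 lower at 7 weeks and none higher, and DESeq2 called 4 lower. The median over the list in edgeR was -0.40 on the log2 scale, beside 0.01 over all genes. Hsd17b7 was 2.34-fold lower (log2 fold change -1.23, SE 0.223, adjusted p = 0.00999 by edgeR, and 0.0526 without IDPN-7wk 1). Its mean was 63.3 CPM in the controls, 34.1 CPM after 3 weeks and 27.1 CPM after 7 weeks. The paper lists Hsd17b7 among the genes lowered in all its models and, from the literature, as selective for HCs over supporting cells. Msmo1, another enzyme of the pathway, was 1.51-fold lower (log2 fold change -0.59, SE 0.0935, adjusted p = 0.00483 by edgeR). Without Control 3 or IDPN-7wk 3, the log2 fold change of Msmo1 was -0.52 and -0.55, under the fold threshold. Other cells also make cholesterol.

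The genes most like the 8 over the 9 libraries were found from log2 CPM profiles, each centred on its own mean, by the root mean square difference from the mean profile of the 8. Among the 5 closest genes outside the group were Mlip (0.115), Mt-nd5 (0.130) and Sparcl1 (0.130), beside a median of 0.497 over all genes tested. Mt-nd5 encodes a mitochondrial subunit of complex I and Sparcl1 a matrix protein. Sparcl1 was at 2406, 2420 and 2501 CPM in the controls, 1674, 2376 and 1966 CPM after 3 weeks and 989 to 1457 CPM after 7 weeks. Mt-nd5 was at 1080 to 1243 CPM in the controls, 1127 to 1213 CPM after 3 weeks and 548 to 799 CPM after 7 weeks. Both genes, like Mlip at 7.53 CPM, were lowest in IDPN-7wk replicate 1. Among the 8 genes, Prx was closest to their mean profile (0.153) and Sox10 farthest (0.691).

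Levels of other cell types moved in the same libraries, and their part in the levels of the 8 genes was not tested. HC markers summed to 2483 to 3002 CPM in the controls, 1111 to 1468 CPM after 3 weeks and 1117 to 1271 CPM after 7 weeks. Of 13 HC markers tested, edgeR called 6 lower at 3 weeks and 10 at 7 weeks. Those with the smallest adjusted p were Atp2b2, Xirp2 and Ptprq, at log2 fold changes of -1.54, -2.09 and -1.49 at 7 weeks. Sums of the HC markers were thus below all controls at 3 weeks, when none of the 8 genes was called and 7 estimates were below 0. A difference in timing between the HC markers and the 8 genes was not tested. Supporting cell markers summed to 14881 to 15227 CPM in the controls, 9363 to 11333 CPM after 3 weeks and 7058 to 9096 CPM after 7 weeks. Their sums were thus also below all controls at 3 weeks, when edgeR called none of 13, and 4 of 13 were called lower at 7 weeks, among them Gjb6, Tectb and Otog at -1.03, -1.73 and -1.26.

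Macrophage markers summed to 79.8 to 136 CPM in the controls, 71.7 to 162 CPM after 3 weeks and 234 to 302 CPM after 7 weeks. All 8 macrophage markers lay higher in all IDPN-7wk libraries than in all controls, and edgeR called 2 of them higher, C1qb (log2 fold change 1.70) and Cd14 (1.00). The call of Cd14 was lost without Control 2 or 3 or any single IDPN-7wk library. Neuron and axon markers summed to 227 to 277 CPM in the controls, 188 to 201 CPM after 3 weeks and 183 to 234 CPM after 7 weeks. Of 11 tested, Uchl1 (1.36) and Sncg (0.77) were called higher at 7 weeks and Isl1 (-0.72) lower at 3 weeks, while 8 estimates at 7 weeks were below 0. The lowest estimate at 7 weeks was that of Gap43, a growth-associated protein of axons, without a call (adjusted p = 0.0820 by edgeR). Gap43 was at 9.90 to 14.4 CPM in the controls, 0 to 1.38 CPM after 3 weeks and 0 to 1.11 CPM after 7 weeks. DESeq2 called 3 of the 11 higher and 2 lower at 3 weeks, and 2 higher at 7 weeks. Pou4f1, a marker of sensory neuron cell bodies, was at 0 in all libraries. Fibroblast and stroma markers, which mark the tissue that carries the nerve fibres, summed to 650 to 726 CPM in the controls and 623 to 760 CPM after 7 weeks, with 1 of 8 called lower (Lum, -1.83). Endothelial markers summed to 385 to 434 CPM in the controls and 313 to 501 CPM after 7 weeks, with Cdh5 (0.67) called higher and Flt1 (-0.66) lower. Melanocyte markers summed to 596 to 626 CPM in the controls and 596 to 656 CPM after 7 weeks, with 1 of 9 called higher (Gpnmb, 0.97, a gene that macrophages also express). The sums of the stroma, endothelial and melanocyte markers overlapped between the controls and the IDPN-7wk rats. Those of the 8 genes did not (8124 to 9150 CPM in the controls and 4025 to 5845 CPM after 7 weeks). Sums of the HC and supporting cell markers also lay below all controls. IDPN-7wk 1, lowest for each of the 8 genes, had the lowest endothelial sum of the 9 libraries (313 CPM). Its stroma sum was the lowest of its group (623 CPM, against 743 and 760 CPM). The part of these sums in the levels of the 8 genes was not tested. The 7-week calls of Sncg, Lum, Cdh5, Flt1 and Gpnmb and the 3-week call of Isl1 were each lost in 4 or more of the 9 fits without 1 library.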

How the data were processed

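Poly(A) RNA of 9 rats was sequenced by SMARTseq2, which amplifies full-length cDNA without molecular identifiers, so floors from counts cover counting error only. The intervals given are from the edgeR fit, whose dispersion takes in the spread between rats. The authors mapped the reads to the rat genome Rnor6.0 with STAR (2.5.3a in the submitters' processing notes) and deposited estimated counts (expected counts) per gene from RSEM (1.3.0 in those notes), as whole numbers with no normalization. Strandedness of counting was not given in the sources used here. Genes were followed by Ensembl identifier.

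Tests were run in R 4.3.3 with edgeR 4.0.16 and DESeq2 1.42.0 (limma was 3.58.1). Genes kept by filterByExpr were normalized by TMM. The robust quasi-likelihood test of edgeR was run in 1 fit of 9 libraries with a mean per group (6 residual degrees of freedom, with a median prior of 4.07), with Benjamini-Hochberg adjustment over 15517 genes. For a call, the adjusted p had to be under 0.05 and the fold above 1.5. Profiles used log2(CPM + 2). With 3 against 3 libraries an exact two-sided permutation test cannot go below p = 0.1, so none was used. Scripts were tested on simulated data. Replicates of a group differed beyond sampling noise (chi-square per gene of at least 19.4).

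The 8 genes and the gene lists were chosen with earlier results of these data known. Named are the 8 genes, the called genes of each Schwann cell, myelin or lipid list (up to 4 by adjusted p, or the 2 with the highest mean CPM where none was called), up to 3 called markers of each other cell type, and the 5 genes with the most similar profile. Opalin, Klk6, Mog, Pou4f1, Gap43, Artn, Lif, Shh, Gdnf, Olig1, Cldn11, Aspa, Sox2, Dhh, Gfap, Ngfr and Scn7a were named after their values were seen. Foxd3, Dct, Ocm and Pecam1 were not analysed here, and values of some single genes that the rule names are not reported here.

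Alternatives were DESeq2, RLE size factors, library totals alone, no filter on low counts, a minimum of 10 counts per gene in each library, only the 6 libraries compared, a fold change above 2 or none, the library set as a covariate, and each library left out. DESeq2 without a fold threshold, leaving out together the 2 IDPN libraries that share a title code, and the same alternatives for the lists were added after the data were seen. Gene positions on Rnor6.0 were not analysed here.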

Additional observations from a re-analysis of the deposited data

Results flagged for a closer look

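2 genes of the lists differed between the exposure times by a direct edgeR test of IDPN-7wk against IDPN-3wk. Ndrg1 was 1.90-fold lower at 7 than at 3 weeks (log2 fold change -0.93, SE 0.152, adjusted p = 0.0306 by edgeR), and lower in 3 of 3 IDPN-7wk libraries than in any IDPN-3wk library. This call was lost without Control 1, 2 or 3, IDPN-3wk 2 or IDPN-7wk 3 (adjusted p up to 0.111), and with the library set as a covariate (0.137). Gjb6, a connexin of supporting cells, was 1.61-fold lower (log2 fold change -0.69, SE 0.120, adjusted p = 0.0426 by edgeR), also without overlap. Its call was lost without Control 1, IDPN-3wk 1 or 2, or any single IDPN-7wk library (adjusted p up to 0.160), and with the covariate (0.253).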

How the results depend on the processing

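At 7 weeks against control, edgeR called 2 of the 8 genes, and 0 to 4 with 1 library left out. The count was 4 with DESeq2, 5 with DESeq2 and no fold threshold, 4 with at least 10 counts in every library and 0 with library totals without TMM, which shifted the median of all genes by 0.14 on the log2 scale (0.13 between 7 and 3 weeks). With the library set as a covariate the count stayed at 2, with Mag (adjusted p = 0.0484 by edgeR) in place of Mbp (0.0520). Between 7 and 3 weeks the count of 0 became 3 with DESeq2, 4 with DESeq2 and no fold threshold, and 0 to 1 with 1 library left out. At 3 weeks it was 0 in every alternative run. All estimates for the 8 genes at 7 weeks against control kept their direction. At 3 weeks, where no gene was called, signs turned with the library set as a covariate for Prx (0.036), Egr2 (0.050), Cnp (0.017) and Sox10 (-0.0029), and with library totals alone for Egr2 (0.010). With 1 library left out, the log2 fold changes at 3 weeks ranged from -0.21 to 0.12 for Prx, -0.47 to 0.24 for Egr2, -0.20 to 0.025 for S100b and -0.13 to 0.12 for Cnp, and between 7 and 3 weeks from -0.62 to 0.087 for Egr2, turning without Control 2 (Prx, Egr2, Cnp), Control 3 (Egr2, S100b), IDPN-3wk 1 (Prx, Egr2, Cnp), IDPN-3wk 2 (Egr2) or, in the last comparison, IDPN-3wk 3. With IDPN-3wk 1 and IDPN-7wk 1 left out together, the count at 7 weeks was 3 and signs at 3 weeks turned for Prx (0.067), Egr2 (0.24) and Cnp (0.12). The causes were not tested. Depth did not limit the 8 genes, which had at least 661 counts in each library. No paired analysis was possible because the labels give no replicate numbers, and the only title code found in more than 1 group ties a single pair of IDPN rats and no control.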
